A study of Mus musculus with 5 samples.

Results

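The inhibitory receptors of this report are 9 genes taken as a list: Pdcd1 (PD-1), Ctla4, Tigit, Lag3, Havcr2 (TIM-3), Klrg1, Cd200r1, Btla and Vsir (VISTA). All 9 were found among the 27726 genes common to the 5 single-cell libraries, and all were kept, whatever their level. The cells were type 2 innate lymphoid cells (ILC2s) sorted from the lungs of female wild type C57BL/6 mice aged 4 to 8 weeks, with a gate for Lin- ST2+ CD127+ Thy1.2+ CD45+ cells and with the cells of 5 mice pooled in each library. The naïve library came from mice without a tumour and was sequenced fresh. The ta-non-activated libraries (ta for tumour-associated) came from mice carrying TC1 cells, a murine lung line that expresses the E6 and E7 genes of a papillomavirus and an activated Ha-ras, placed under the skin of the flank, and were sequenced fresh at week 2 and at week 3. The ta-activated libraries came from the same kind of mice at the same weeks, followed by 7 days of culture in rhIL-2, rmIL-33 and TSLP at 10 ng/mL each. So the tumour grew at a distance from the lung, and each week of each condition is 1 pool of mice.

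Inhibitory receptors lower the response of a lymphocyte when they meet a ligand on a neighbouring cell. PD-1, BTLA, TIGIT and KLRG1 carry tyrosine motifs in their tails that bring phosphatases to the membrane, CTLA-4 takes the ligands CD80 and CD86 away from the activating receptor CD28, and CD200R1 works through Dok adaptors. LAG-3 binds class II molecules of the major histocompatibility complex, TIM-3 binds galectins and other ligands, and VISTA is found on resting lymphocytes and myeloid cells. In ILC2s, KLRG1 is widely used as a marker of mature cells, and PD-1 is known to restrain their growth and cytokine output.

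After the limits of at least 200 genes and under 5% mitochondrial counts, 16530 of 18628 barcodes remained, 1601 to 6389 in a library. The deposited counts of unique molecular identifiers (UMIs) summed to between 9910201 and 71126524 in a library, and the median per kept cell lay between 4396 and 16090. Levels are the UMIs of a gene divided by all UMIs of the cells summed, as CPM (UMIs of the gene in each 1e6 counted), with 95% Poisson intervals. Reads come from the 3′ end of transcripts, so a level is compared between libraries for 1 gene and not between genes. Intervals cover counting error only, not the spread between mice. For shares of cells, every cell of 2000 UMIs or more was cut down to 2000 by random draws, and the intervals are exact binomial ones.

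The libraries did not hold ILC2s alone, and this touches every value below. Of the 1601 kept cells at week 3 ta-non-activated, 796 (49.7%) fell in T cell or thymocyte-like clusters. The largest of these clusters, of 457 cells, was led by genes such as Rag1 and Ptcra. The others were named by their raised markers, with no T cell or thymocyte marker among their 10 leading genes. Another 702 cells (43.8%) fell in clusters rich in Gata3 and Il1rl1, the transcription factor and the IL-33 receptor that define ILC2s. The naïve library held 5371 cells (84.1%) in such Gata3-rich clusters, beside 442 NK or ILC1-like, 252 type 17-like, 108 endothelial-like and 216 unnamed cells. Of these Gata3-rich cells, 1200 formed a cluster led by Scgb1a1, Cxcl1 and Scgb3a2, with Gata3 at 775 and Il1rl1 at 757 CPM. Coarser clustering (Leiden resolution 0.3) named 1045 naïve cells (16.4%) epithelial-like and left 4351 (68.1%) Gata3-rich. Finer clustering (resolution 1.0) named 309 epithelial-like and left 5274 (82.5%) Gata3-rich. Values below use the first naming unless a resolution is given. All 1823 cells of the week 2 ta-non-activated library were in Gata3-rich clusters, as were 2708 and 3548 cells of the week 2 and week 3 ta-activated libraries. The receptors themselves took no part in the clustering. Values are therefore given for the Gata3-rich clusters first and for all kept cells beside them.

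The week 2 ta-non-activated library also stood apart from the other 2 fresh libraries. In the Gata3-rich clusters Il1rl1 was at 56.3 CPM there, against 918 in naïve and 370 in week 3 fresh cells, and against 45.9 and 122 after culture. Gata3 was at 336 there, against 870 in naïve and 593 in week 3 fresh cells, and against 589 and 903 after culture. Over 7161 genes the summed profile of this library had a Pearson r of 0.85 and 0.833 with the 2 cultured libraries. It had 0.744 with the week 3 ta-non-activated library and 0.514 with the naïve library. These values compare sums of single libraries and carry no test. The labels call this library non-activated, and it is kept under that name. All 18 markers on the ILC2 list were detected in every library.

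Pdcd1, which encodes PD-1, followed that split. In the Gata3-rich clusters it was at 65.8 CPM (95% interval 62.7 to 68.9) in the naïve library, 9.03 (8.04 to 10.1) in week 2 ta-non-activated (fresh) cells and 63.6 (53.2 to 75.4) in week 3 fresh cells. The cultured libraries had 4.12 (3.60 to 4.69) at week 2 and 6.72 (6.08 to 7.40) at week 3. Naïve and week 3 fresh cells were therefore high, and the remaining 3 libraries were low, with no overlap between the intervals of these sets. The naïve level was 7.28-fold that of week 2 fresh cells (95% counting interval 6.44 to 8.26) and 1.03-fold that of week 3 fresh cells (0.866 to 1.24). Over all kept cells the week 3 fresh level was 23.1, the thymocyte-like cells of that library being at 10.3 (7.98 to 13.0).

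Klrg1, a lectin-like receptor for cadherins, gave nearly the same picture. Its levels in the Gata3-rich clusters were 69.5 CPM (66.4 to 72.8) in the naïve library, 10.6 (9.51 to 11.8) in week 2 fresh cells and 75.7 (64.3 to 88.5) in week 3 fresh cells. After culture they were 7.63 (6.91 to 8.40) and 8.22 (7.51 to 8.97). The naïve level was 6.56-fold that of week 2 fresh cells (5.85 to 7.38) and 0.919-fold that of week 3 fresh cells (0.780 to 1.09). In the thymocyte-like cells of the week 3 library 1 UMI of Klrg1 was counted, a level of 0.149. Over all kept cells the week 3 fresh level was 16.9.

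Havcr2, which encodes TIM-3, ran the other way. It was at 3.49 CPM (2.82 to 4.28) in the naïve Gata3-rich clusters, 25.7 (24.0 to 27.5) in week 2 fresh cells and 2.89 (1.06 to 6.29, from 6 UMIs) in week 3 fresh cells. Culture gave 22.6 (21.3 to 23.9) at week 2 and 21.5 (20.4 to 22.7) at week 3. Here the week 2 fresh library and both cultured libraries were the high ones. Week 2 fresh cells exceeded naïve cells 7.35-fold (5.93 to 9.21), and week 3 fresh cells 8.89-fold (4.07 to 24.3).

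Pdcd1 and Havcr2 were high in opposite sets of libraries, and Ctla4 (below) had an order of its own. The 250 bases before the RefSeq transcription start of each are therefore shown on the coding strand of GRCm38.p6. They lie at chr1:94052554-94052803 (minus strand) for Pdcd1, chr11:46454681-46454930 (plus strand) for Havcr2 and chr1:60908775-60909024 (plus strand) for Ctla4. Capitals mark matches on either strand to a motif. The AP-1 type was searched as TGANTCA. The NFAT type was searched as TGGAAA. The GATA type was searched as AGATAA. The Runx type was searched as TGTGGT.
Pdcd1: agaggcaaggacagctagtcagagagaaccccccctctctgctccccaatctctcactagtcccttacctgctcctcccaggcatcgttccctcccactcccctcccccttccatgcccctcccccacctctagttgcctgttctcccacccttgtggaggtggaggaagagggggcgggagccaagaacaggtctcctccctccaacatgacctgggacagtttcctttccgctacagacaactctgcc
Havcr2: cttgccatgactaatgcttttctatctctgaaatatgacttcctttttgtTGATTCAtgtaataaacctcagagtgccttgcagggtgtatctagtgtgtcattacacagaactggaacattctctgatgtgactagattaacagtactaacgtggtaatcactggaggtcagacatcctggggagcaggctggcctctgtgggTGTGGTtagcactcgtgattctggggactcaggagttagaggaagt
Ctla4: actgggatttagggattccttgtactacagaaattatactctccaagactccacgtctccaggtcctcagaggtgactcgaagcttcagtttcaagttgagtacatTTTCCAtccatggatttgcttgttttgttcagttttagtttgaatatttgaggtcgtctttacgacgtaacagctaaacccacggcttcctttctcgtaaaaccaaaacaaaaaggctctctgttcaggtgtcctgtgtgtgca
Havcr2 held 1 AP-1 type match, whose letters read as a match on both strands, starting 200 bases before the start, and 1 Runx type match 46 bases before it. Ctla4 held 1 NFAT type match on the opposite strand, 144 bases before the start, and Pdcd1 held none of the 4. Among 32841 windows of the same length, 6.75% held the AP-1 type letters, 18.6% the NFAT type, 9.99% the GATA type and 14.0% the Runx type. No match overlapped another in these 3 windows. These are descriptions of letters and no measure of binding.

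**Figure D1:**
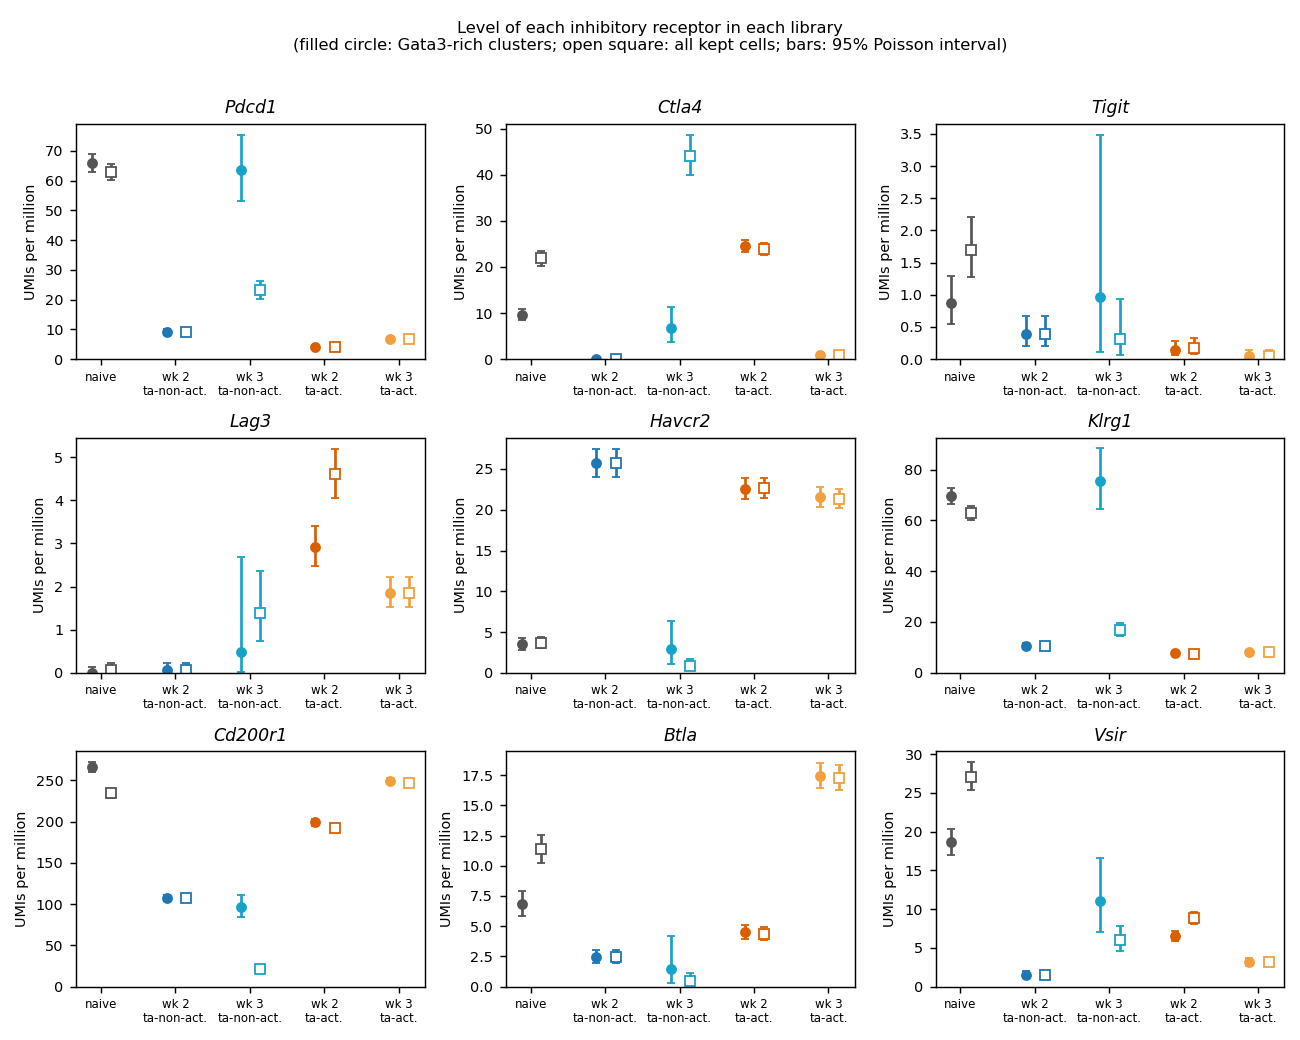
Level of each of the 9 receptors (CPM, linear axes that differ between panels) in the 5 libraries, for the Gata3-rich clusters (filled circles) and for all kept cells (open squares), with 95% Poisson intervals. Pdcd1 and Klrg1 are high in the naïve library and in the Gata3-rich cells of the week 3 ta-non-activated library, Havcr2 is high in the other 3, and for Ctla4 the squares of the naïve and week 3 ta-non-activated libraries lie above their circles.

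Cd200r1, the receptor for CD200, was lower in both fresh tumour libraries than in the naïve one. In the Gata3-rich clusters it was at 266 CPM (260 to 273) in the naïve library, 108 (104 to 111) in week 2 fresh cells, 96.9 (83.9 to 111) in week 3 fresh cells, and 199 (195 to 203) and 249 (245 to 253) after culture. Both fresh tumour libraries were below the naïve and the cultured ones, and the intervals of the 2 fresh tumour libraries overlapped. The naïve level was 2.47-fold (2.37 to 2.57) and 2.75-fold (2.39 to 3.18) that of week 2 and week 3 fresh cells. In thymocyte-like cells Cd200r1 was at 0.594 (0.162 to 1.52, 4 UMIs).

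Btla, a receptor for the TNF family receptor HVEM (Tnfrsf14), was at 6.84 CPM (5.88 to 7.91) in naïve Gata3-rich clusters, 2.47 (1.96 to 3.06) in week 2 fresh cells and 1.45 (0.298 to 4.23, from 3 UMIs) in week 3 fresh cells. After culture it was at 4.50 (3.96 to 5.10) at week 2 and 17.5 (16.4 to 18.6) at week 3, the highest of the 5. Naïve over fresh ratios were 2.77 (2.12 to 3.64) at week 2 and 4.73 (1.59 to 23.1) at week 3. Within the naïve library the NK or ILC1-like cells had a higher level than the Gata3-rich clusters, at 54.4 (45.7 to 64.2).

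Vsir, the gene of VISTA, was at 18.6 CPM (17 to 20.3) in naïve Gata3-rich clusters, 1.47 (1.09 to 1.95) in week 2 fresh cells and 11.1 (7.03 to 16.6) in week 3 fresh cells. Cultured cells had 6.49 (5.84 to 7.21) at week 2 and 3.14 (2.71 to 3.62) at week 3. Week 2 fresh cells were the lowest and naïve cells the highest. The naïve over fresh ratios were 12.6 (9.39 to 17.3) and 1.68 (1.11 to 2.67). Vsir was higher outside the Gata3-rich clusters of the naïve library, at 57.9 (48.9 to 67.9) in NK or ILC1-like, 66.0 (53.0 to 81.3) in type 17-like and 98.4 (82.4 to 117) in the unnamed cells, which were led by genes such as Il23r, Trac and Cd3e. The gene lies inside Cdh23 on the opposite strand (chromosome 10, positions 60346851 to 60372684, GRCm38).

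For Ctla4, the competitor of CD28, the level depended on which cells were summed. Over all kept cells it was at 21.9 CPM (20.3 to 23.5) in the naïve library and 44.2 (40.0 to 48.6) in week 3 fresh cells, but 9.54 (8.41 to 10.8) and 6.75 (3.69 to 11.3, 14 UMIs) in their Gata3-rich clusters. In week 3 fresh cells 362 of 415 Ctla4 UMIs came from the thymocyte-like cells, at 53.8 (48.4 to 59.6). In the naïve library the NK or ILC1-like cells were at 111 (98.2 to 124) and the unnamed cells at 87.3 (72.2 to 105). Week 2 fresh cells held 3 UMIs in all, a level of 0.0903 (0.0186 to 0.264), and no cell of 1809 after thinning, which by the limit of 3 cells for a count of 0 allows up to 0.166% of cells with a UMI at this depth.

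After culture Ctla4 differed between the weeks by a factor of 25.7 (19.7 to 34.0), with 24.5 (23.2 to 25.9) at week 2 and 0.955 (0.725 to 1.23) at week 3. The week 2 transcripts sat in few cells. Of 2895 kept cells 205 had any, and 29 cells with 10 or more UMIs held 863 of 1369, or 63.0%. Among these 29 cells 28 were in Gata3-rich clusters, 28 had Gata3 UMIs, 1 had Cd3e and 1 had Foxp3, the regulatory T cell factor. One cell held 138 UMIs. In the annotation used here Ctla4 overlaps the pseudogene Rpl18-ps1 on the same strand.

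Lag3 and Tigit were rare. Lag3 had 0 UMIs in naïve Gata3-rich clusters, which by the limit of 3 UMIs for a count of 0 allows up to 0.113 CPM, and 2 and 1 UMIs in week 2 and week 3 fresh ones. Cultured cells had 159 UMIs at week 2, a level of 2.91 (2.47 to 3.40), and 112 at week 3, a level of 1.84 (1.52 to 2.22). Outside the Gata3-rich clusters 104 Lag3 UMIs fell in 74 unnamed cells of the week 2 culture led by Gzmc, Il22 and Xcl1, at 49.3 (40.3 to 59.7). Tigit was at 0.864 (0.548 to 1.30) in naïve Gata3-rich clusters, 0.391 (0.208 to 0.669) and 0.964 (0.117 to 3.48, 2 UMIs) in fresh tumour ones, and 0.146 (0.0632 to 0.288) and 0.0494 (0.0102 to 0.144) after culture. In the naïve library it was highest in the NK or ILC1-like cells, at 7.77 (4.74 to 12.0).

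The comparison of naïve with tumour-associated fresh cells asks what a tumour elsewhere in the body does to these receptors in the lung. With 1 naïve library there is no test and no replicate check, and a receptor was counted where naïve cells differed 2-fold or more from both fresh tumour libraries, among genes with at least 20 UMIs over the 3 libraries. Over all kept cells 6 of 8 receptors that passed this minimum were higher in the naïve library (Pdcd1, Tigit, Klrg1, Cd200r1, Btla and Vsir), where 25.9% of 13153 genes were, and none was lower, where 11.2% were. Lag3 did not pass the minimum, and Ctla4 and Havcr2 differed in direction between the weeks. In the Gata3-rich clusters 2 of 8 were higher, Cd200r1 and Btla, against 18.2% of 12270 genes, and none was lower, against 4.97%. At week 3 the count of Btla rests on 3 fresh UMIs there, with an interval (1.59 to 23.1) that takes in ratios below 2. Over all kept cells Btla and Tigit rest on 4 and 3 fresh UMIs at week 3. The 4 receptors that no longer counted (Pdcd1, Tigit, Klrg1 and Vsir) had week 3 ratios of 1.03, 0.897 (0.222 to 7.85), 0.919 and 1.68.

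**Figure D2:**
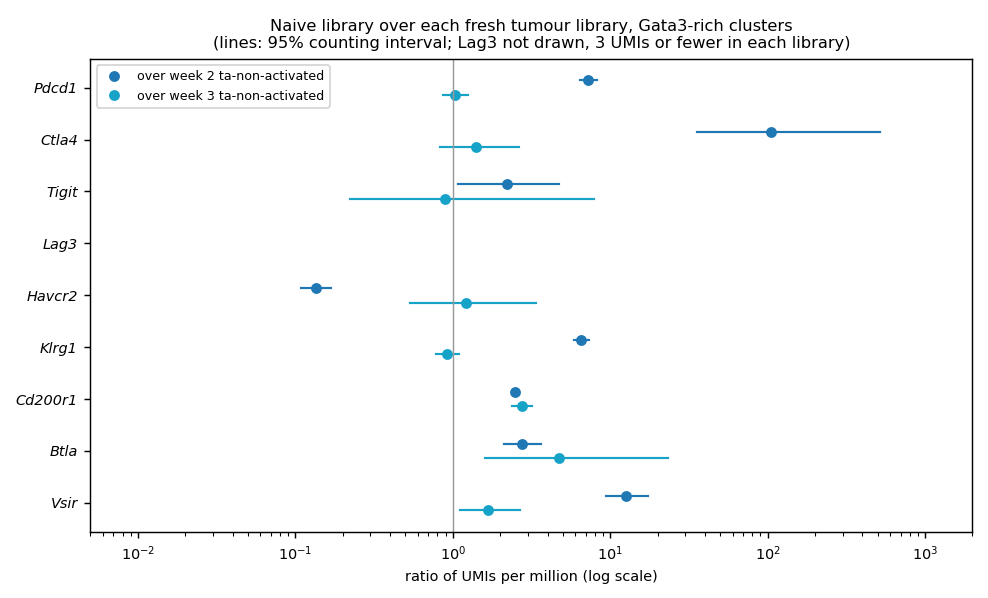
Ratio of the level in naïve cells to that in week 2 (dark blue) and week 3 (light blue) ta-non-activated cells, Gata3-rich clusters, log axis, with 95% counting intervals (Lag3 is not drawn, with 3 UMIs or fewer in each library). Pdcd1, Klrg1 and Ctla4 lie above 1 against week 2 and near 1 against week 3, Havcr2 lies below 1 against week 2, and Cd200r1 and Btla lie above 1 against both.

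The naïve library also differed from the others in a technical respect, whose part in these ratios was not tested. The header of its matrix names Cell Ranger 6.0.0, the headers of the other 4 name 3.0.2, and the labels give 3.0.2 for all 5, so the version behind its counts is not settled. Genes with long introns were higher in it. Genes were set in 5 equal bins by the bases of their introns. In the bin with the longest introns the median log2 ratio of naïve over week 2 fresh cells was 2.09, and over week 3 fresh cells 1.54 (Gata3-rich clusters, 1 CPM added). The introns of the 9 receptors sum to between 5236 bases (Lag3) and 29960 bases (Btla), which puts them in the 3 bins with shorter introns. In bin 2, that of Pdcd1 and Klrg1, the median was -0.56 against week 2 and -0.21 against week 3, and in bin 3, that of Cd200r1 and Vsir, it was -0.10 and 0.15. The part of the counting in the ratios was not tested.

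Culture asks the second question, how the receptors differ after 7 days with IL-2, IL-33 and TSLP. No library was cultured without these cytokines, so their part cannot be told apart from that of the culture itself. Over 2 ta-activated against 2 ta-non-activated libraries, edgeR's quasi-likelihood test called none of the 9 receptors at an adjusted p of 0.05 and none of 12643 genes (0%), while 2120 genes had an unadjusted p under 0.05 and DESeq2 called 1037. In these fits, over all kept cells, only Pdcd1 among the 9 had an unadjusted edgeR p under 0.05 (0.0320). Its log2 fold change was -1.64 (SE 0.54) and its adjusted p 0.267, and none of the 9 passed in DESeq2. In the Gata3-rich clusters edgeR called none of 12523 genes, and 1501 had an unadjusted p under 0.05. Among them were Lag3 (0.0131, log2 fold change 4.20), Pdcd1 (0.0290, -2.87), Klrg1 (0.0383, -2.57) and Btla (0.0388, 2.15). Their adjusted p lay between 0.333 and 0.392, and Lag3 rests on 2 and 1 fresh UMIs. Without the week 2 ta-non-activated library edgeR called 1646 genes over all kept cells and 331 in the Gata3-rich clusters. In the latter fit it gave a log2 fold change of -3.69 (SE 0.36) for Pdcd1 with an adjusted p of 0.0461, and of -3.39 (SE 0.23) for Klrg1 with an adjusted p of 0.0351. Over all kept cells without that library neither passed, with -2.06 (SE 0.38, adjusted p 0.0501) for Pdcd1 and -1.07 (SE 0.27, adjusted p 0.0773) for Klrg1. There Havcr2 was higher by 4.75 (SE 0.37, adjusted p 0.0280) and Cd200r1 by 3.39 (SE 0.33, adjusted p 0.0292), and in the Gata3-rich clusters neither of these passed, with 2.80 (SE 0.37, adjusted p 0.0511) and 1.08 (SE 0.29, adjusted p 0.116). So no receptor passed in both sets of cells, and 49.7% of the cells of the lone fresh library over all kept cells were thymocyte-like. In these fits the week 3 library is the lone fresh one, and its spread is taken from the cultured pair.

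Within each week the ratios of cultured to fresh Gata3-rich cells were as follows. Pdcd1 was at 0.456-fold its fresh level (0.382 to 0.544) at week 2 and at 0.106-fold (0.0866 to 0.129) at week 3. For Klrg1 the ratios were 0.720 (0.623 to 0.832) and 0.109 (0.0906 to 0.131). Cd200r1 was 1.85-fold (1.78 to 1.92) and 2.57-fold (2.24 to 2.97) higher after culture. Btla was 1.82-fold (1.42 to 2.37) and 12.1-fold (4.12 to 58.7) higher. Lag3 was higher by ratios of 48.3 (13.2 to 403) and 3.83 (0.673 to 152), the fresh counts being 2 UMIs and 1. Tigit was at 0.374-fold (0.134 to 0.974) at week 2, and its week 3 interval also lay below 1 (0.00587 to 0.614), but on 3 cultured and 2 fresh UMIs, too few to read a size. In both weeks the intervals of Cd200r1 and Btla thus lay above 1, and those of Pdcd1, Klrg1 and Tigit below 1. Lag3 had an interval that leaves out 1 at week 2 alone. How many of all genes have such intervals was not counted, so this is no result about the receptors as a list.

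For Havcr2, Ctla4 and Vsir the ratio lay on opposite sides of 1 in the 2 weeks. Havcr2 was 0.878-fold (0.804 to 0.960) at week 2 and 7.45-fold (3.41 to 20.3) at week 3. Ctla4 was at 272-fold (92.7 to 1320) its fresh level at week 2, against 3 fresh UMIs, and at 0.142-fold (0.0780 to 0.275) at week 3. Vsir was 4.40-fold (3.26 to 6.07) and 0.284-fold (0.184 to 0.458).

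With a limit of 2-fold in both weeks, and over all kept cells, 2 of 9 receptors were lower after culture (Pdcd1 and Tigit), where 4.47% of 13484 genes were, and none was higher, where 10.2% were. In the Gata3-rich clusters 2 of 9 were lower, again Pdcd1 and Tigit, against 2.99% of 13130 genes, and 1 was higher, Lag3, against 7.74%. At week 3 the count of Tigit rests on 3 cultured against 3 fresh UMIs over all kept cells, and on 3 against 2 in the Gata3-rich clusters. That of Lag3 rests on 1 fresh UMI at week 3, with an interval (0.673 to 152) that takes in 1. Klrg1 missed the limit at week 2, with its ratio of 0.720.

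**Figure D3:**
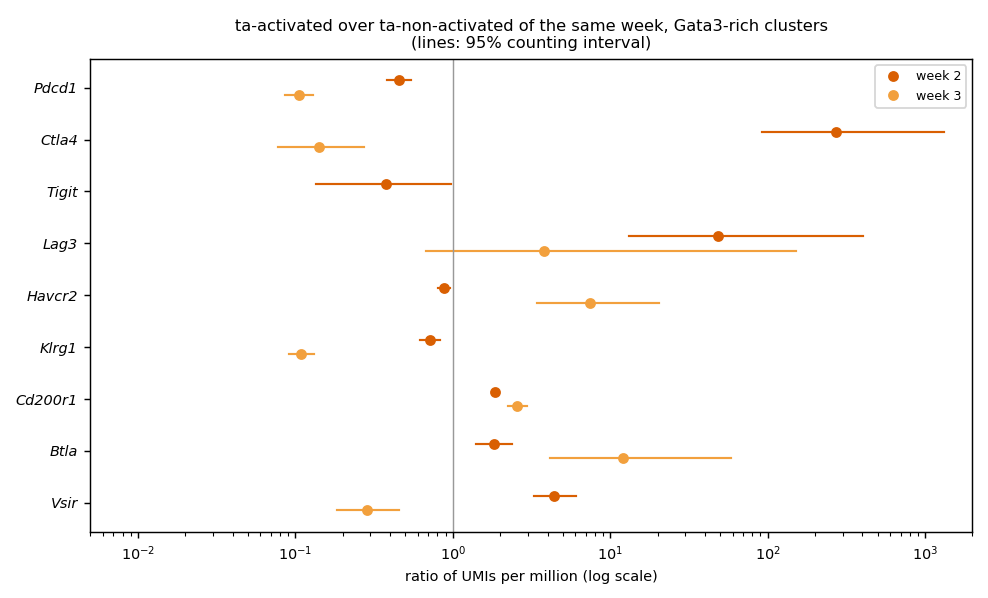
Ratio of the level in ta-activated to that in ta-non-activated cells of the same week, Gata3-rich clusters, log axis, with 95% counting intervals (week 3 of Tigit is not drawn, with 3 UMIs or fewer on both sides). Pdcd1 and Klrg1 lie below 1 and Cd200r1 and Btla above 1 in both weeks, while Ctla4, Havcr2 and Vsir lie on opposite sides of 1.

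Shares of cells with a UMI ordered the libraries as the levels did for Pdcd1, but not in every respect for Klrg1, Cd200r1 and Havcr2. Pdcd1 was found in 10.6% of naïve Gata3-rich cells (548 of 5184; 9.75 to 11.4), 1.49% of week 2 fresh (27 of 1809; 0.986 to 2.16), 8.70% of week 3 fresh (53 of 609; 6.59 to 11.2) and 0.817% and 0.874% of cultured cells. Klrg1 was found in 12.2%, 2.32%, 12.8%, 1.71% and 1.52% of cells in the same order, so that the 2 cultured libraries changed places. Cd200r1 was found in 35.0% (33.7 to 36.3), 21.3%, 17.7%, 33.0% and 39.1% (37.5 to 40.8), the week 3 culture lying above the naïve library by share and below it by level. Havcr2 was found in 0.598%, 4.26% (3.37 to 5.29), 0.328%, 3.01% and 4.34% (3.70 to 5.07), the first place passing from week 2 fresh cells to the week 3 culture with intervals that overlap. For comparison, the thymocyte-like cells of the week 3 fresh library held Klrg1 and Cd200r1 in 0.128% of cells each and Pdcd1 in 1.53%. The week 3 shares of Klrg1, Cd200r1 and Pdcd1 in Gata3-rich cells lay above these values. Before thinning the thymocyte-like cells had a median of 6239.5 UMIs, against 2776.5 in the Gata3-rich cells. Pdcd1 ran from 1.97 to 22.5 CPM between the thymocyte-like clusters, and whether it is background there was not tested. Cells with fewer than 2000 UMIs, 14 to 242 in a library, were left out. Without thinning Pdcd1 was found in 19.6%, 12.0% and 13.2% of naïve, week 2 fresh and week 3 fresh Gata3-rich cells, whose depths differ.

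Few cells held more than 1 receptor at this depth. Of naïve Gata3-rich cells 47.5% had none of the 9, 41.0% had 1, 10.4% had 2 and 1.02% had 3. Among week 2 fresh cells 71.6% had none and 1.66% had 2. In the week 3 fresh library 64.4% had none and 5.75% had 2, and after culture 60.2% and 54.5% had none. Within a library, the share of cells with 1 receptor was set beside that in cells with and without another, for 184 ordered pairs. In 26 of them the first receptor was in no cell at all, so that no difference could be seen. Of the other 158, 6 had a higher share beside the second receptor with intervals apart and 4 a lower one, and in the rest the intervals overlapped. In the naïve library 13.8% of cells with Klrg1 had Pdcd1 (87 of 630; 11.2 to 16.8), against 10.1% of the rest (9.26 to 11). Cells with Ctla4 in the week 2 culture had Cd200r1 less often, in 15.9% (11 of 69; 8.24 to 26.7) against 33.4% (31.6 to 35.3). These shares are over cells of 1 library, which are not replicates.

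The receptors varied between the Gata3-rich clusters of a library, which were drawn without them. In the naïve library Pdcd1 was highest in the cluster of 967 cells led by Areg, Il5 and Nr4a1, at 120 CPM (111 to 129), and between 33.4 and 59.8 in the other 4 clusters of over 100 cells. Week 3 fresh cells had the same arrangement, with 114 (91.1 to 141) in the cluster of 214 cells led by Areg, Ccl1 and Il5 and 35.4 (26.0 to 47.0) in the cluster of 488 cells led by Ccr2 and Inpp4b. Klrg1 did not share it. It was highest in a naïve cluster of 1294 cells led by Alcam and Sorcs1, at 123 (115 to 133), and at 54.3 (48.4 to 60.7) in the Areg cluster, and in week 3 fresh cells it was at 60.4 (44.0 to 80.8) in the Areg cluster and 84.2 (69.4 to 101) in the other. Havcr2, though rare in the naïve library, was also highest in the Areg cluster, at 7.88 (5.75 to 10.5). Cd200r1 ran from 116 to 343 over the naïve Gata3-rich clusters of over 100 cells. Over the week 2 fresh clusters it ran from 47.8 to 191, so the clusters of these libraries overlapped though their sums did not.

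In the week 2 fresh library, where Pdcd1 and Klrg1 were low, each was highest in the same cluster of 211 cells, at 26.3 (20.7 to 33.0) and 26.7 (21 to 33.4), as was Havcr2, at 40.9 (33.7 to 49.1). In the week 2 culture Ctla4 was at 56.5 (53.2 to 60.0) in a cluster of 667 cells led by Nts, Penk and Il13 and at 69.2 (56.9 to 83.5) in one of 135 cells, and between 1.78 and 9.0 in the other 4 Gata3-rich clusters. The cluster of 667 cells was also the one with the most Havcr2, at 43.0 (40.1 to 46.1) against 9.45 to 14.6 in the other Gata3-rich clusters. In the week 3 culture Havcr2 was highest, at 41.6 (38.3 to 45.2), in a cluster of 1015 cells led by Calca, Ramp3 and Tnfrsf9, and Ctla4 was at 2.83 or less in every Gata3-rich cluster.

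**Figure D4:**
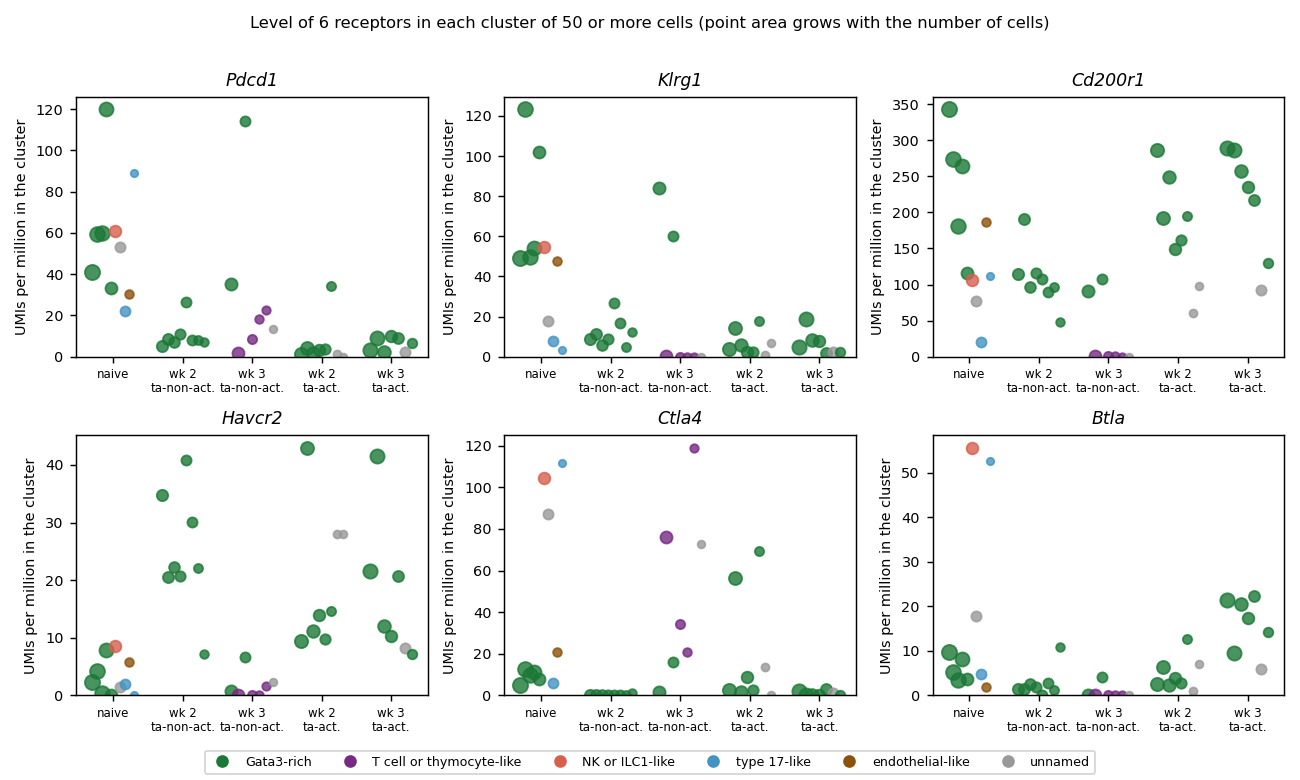
Level of 6 receptors (CPM) in each cluster of at least 50 cells, by library, coloured by the class of the cluster; larger points are larger clusters. Pdcd1 stands out in 1 Gata3-rich cluster each of the naïve (120) and the week 3 ta-non-activated library (114), and the high Ctla4 values of these 2 libraries belong to clusters of other classes.

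Genes with patterns most like those of the receptors were looked for over 13 sums of a class in a library, by Pearson r of log2 levels among 8797 genes. For Pdcd1 they were Ddx5 (0.965), Tnfaip3 (0.947) and Deptor (0.946). For Klrg1 they were Pcsk1 (0.960), Slc7a8 (0.942) and Ccr8 (0.940), and for Cd200r1 Ltb4r1 (0.974), Sept8 (0.963) and Cish (0.961). Havcr2 was followed by Car5b (0.942), Osm (0.939) and Dusp22 (0.935), and Ctla4 by Satb1 (0.918), Fam189b (0.905) and Wdr45b (0.888). Btla was closest to Dok6 (0.942), Rnf185 (0.918) and Por (0.917), Vsir to Slc24a3 (0.955), Myo1f (0.946) and Panx1 (0.939), Lag3 to Fads3 (0.912), Il18bp (0.902) and Spp1 (0.889), and Tigit to Spock2 (0.950), Dlc1 (0.935) and Srgap1 (0.935). The sums of 1 library share their depth and processing, so the coefficients describe these libraries only. Lag3 was at 39.0 in the unnamed cells of the week 2 culture and at 2.91 or less in the other sums. Its coefficients thus rest largely on that sum. Tigit had 23 UMIs or fewer in every sum.

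A list of 20 transcription factors linked to exhausted and effector T cells was read beside the receptors. Nr4a1, an immediate early gene of antigen receptor signalling, was at 910 CPM in naïve Gata3-rich cells, 6.08 in week 2 fresh, 425 in week 3 fresh, and 4.08 and 12.6 in cultured cells. Its paralog Nr4a2, chosen after its values were seen, was at 531, 0.241, 187, 0.512 and 0.346 in the same order. Tcf7, the factor of stem-like T cells, likewise chosen after its values were seen, was at 14.2, 2.02, 30.8, 0.512 and 0.873. Batf, a partner of AP-1 factors, ran the other way, with 31.8, 258, 24.6, 229 and 378. Tox was at 893, 15.3, 99.8, 41.2 and 89.0, and Id2, needed by all innate lymphoid cells, at 577, 517, 688, 1104 and 1697. Of 18 such factors that passed the minimum 9 were 2-fold or more higher in naïve cells than in both fresh tumour libraries and none was lower, where 18.2% and 4.97% of all genes were, with a median log2 ratio of 1.5 against 0.28 over all genes. Of these 9, 4 (Bach2, Ikzf2, Nfatc1 and Tox) have introns long enough for the bin with the longest introns, whose own medians of 2.09 and 1.54 are given above. After culture 2 of 19 were higher in both weeks (Id2 and Id3) and 2 lower (Bach2 and Tcf7), against 7.74% and 2.99% of all genes. In edgeR none of 19 passed the threshold over all kept cells, where no gene did.

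**Figure D5:**
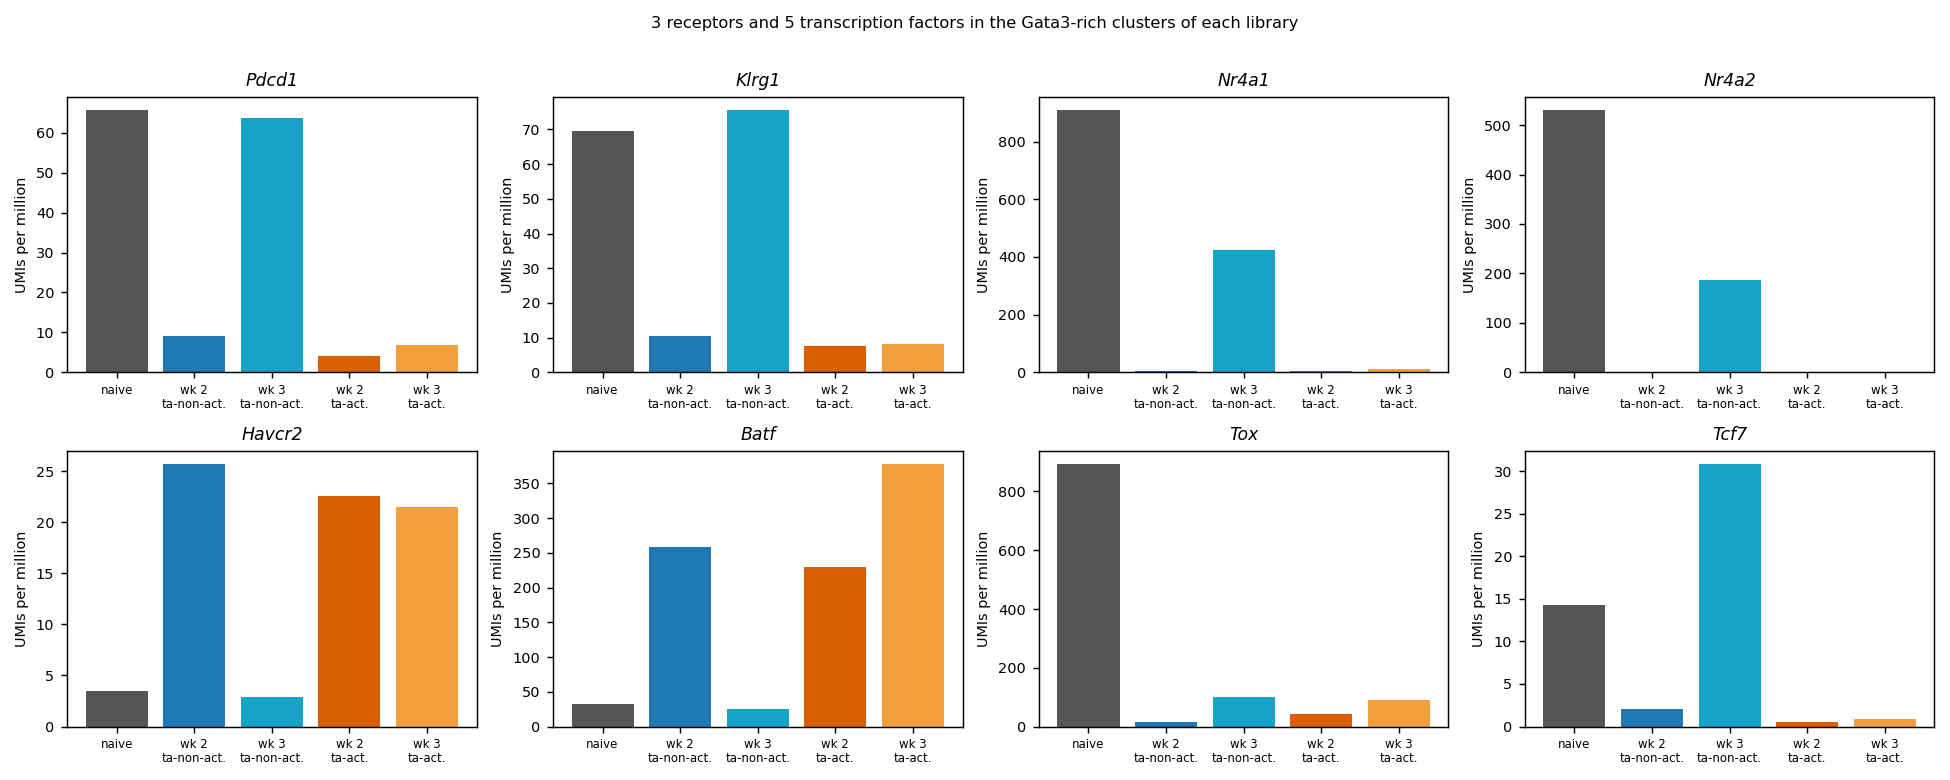
Levels (CPM, axes from 0 that differ between panels) of 3 receptors and 5 transcription factors in the Gata3-rich clusters of the 5 libraries. Nr4a1 and Nr4a2 are high in the naïve and week 3 ta-non-activated libraries, as are Pdcd1 and Klrg1, whereas Batf is high in the 3 libraries in which Havcr2 is high.

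Signalling proteins below the receptors were read the same way. Among 18 tested, 8 were 2-fold or more higher in naïve than in both fresh tumour libraries (Cbl, Cblb, Inpp5d, Itch, Rasa1, Spry2, Ubash3a and Ubash3b) and none was lower, against 18.2% and 4.97% of all genes, with a median log2 ratio of 1.21 against 0.28. Of these 8, 5 (Cbl, Cblb, Inpp5d, Itch and Ubash3b) belong by length to the bin with the longest introns. With culture none of 19 was higher and 1, Spry2, was lower, against 7.74% and 2.99%. The phosphatase Inpp5d (SHIP1) was at 326, 30.7, 61.2, 70.6 and 81.1 CPM in the order used above, and Ptpn22, another phosphatase, at 270, 23.2, 167, 37.3 and 45.3. Csk, the kinase that restrains Src family kinases, ranged from 87.3 to 125 and the adaptor gene Sh2d2a from 84.9 to 115 over the 5 libraries. Over all kept cells none of 20 passed the threshold in edgeR, where no gene did.

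Other inhibitory receptors gave 4 of 13 higher in naïve than in both fresh tumour libraries (Lax1, Pag1, Pecam1 and Tgfbr2) and 1 lower (Cd72), against 18.2% and 4.97% of all genes, and all of the 4 but Lax1 belong to the bin with the longest introns. After culture 1 of 16 was higher, Lilrb4a, and 3 were lower (Cd160, Cd96 and Lair1), against 7.74% and 2.99%. Lilrb4a was at 9.54, 4.48, 24.1, 46.7 and 97.5 CPM and Tgfbr2, a receptor chain for TGF-beta, at 216, 26.1, 80.5, 63.3 and 91.8. Il10ra was at 142, 46.3, 71.8, 24.7 and 27.5, and Pag1 at 130, 9.72, 26.0, 18.2 and 10.3. Over all kept cells none of 15 passed the threshold in edgeR, where no gene did.

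Ligands of the 9 receptors were found in the sorted cells too. Of 14 tested, 3 were 2-fold or more higher in naïve than in both fresh tumour libraries (Cd274, Cdh2 and Tnfrsf14) and 2 were lower (Cd80 and Nectin3), against 18.2% and 4.97% of all genes. After culture 4 of 15 were higher in both weeks (Cd274, Cd80, Lgals3 and Lgals9) and none was lower, against 7.74% and 2.99%. Cd274, the gene of PD-L1, chosen after its values were seen, was at 48.3 in naïve, 15.4 and 16.9 in fresh tumour and 64.6 and 55.1 CPM in cultured cells, so that it had a low level in both fresh tumour libraries, as Cd200r1 did. Lgals3 (galectin 3) was at 44.7, 158, 55.4, 391 and 149, Lgals9 at 63.9, 36.9, 43.4, 76.9 and 92.8, Selplg at 218, 172, 271, 336 and 265, and Hmgb1 between 512 and 578. Over all kept cells none of 15 passed the threshold in edgeR, where no gene did.

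Paralogs of the receptors can share reads with them, and Cd200r1 has close relatives. Cd200r3, an activating member of that family, was at 2.14, 1.29, 1.45, 82.7 and 86.5 CPM, an increase with culture that Cd200r1 did not have at this size. The handling of reads that match more than 1 of these genes was not examined, so their levels are uncertain to that extent. Icos was at 567, 350, 472, 1192 and 1025, Cd28 at 15.8, 4.94, 16.4, 28.9 and 148, and Cd226, which competes with Tigit for ligands, at 82.6, 54.8, 50.1, 21.1 and 46.9. After culture 5 of 8 paralogs were higher in both weeks (Cd200r3, Cd200r4, Cd28, Icos and Timd2) and 1 was lower (Cd4), against 7.74% and 2.99% of all genes. Over all kept cells none of 9 passed the threshold in edgeR, where no gene did. There 5 (Cd200r2, Cd200r3, Cd200r4, Icos and Timd2) had an unadjusted p under 0.05, as had 2120 of 12643 genes.

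Markers of other cell types moved with some of these results. In the Gata3-rich clusters the summed level of 18 T cell or thymocyte markers was 883 CPM in naïve, 179 in week 2 fresh, 960 in week 3 fresh, and 397 and 509 in cultured cells, with Rag2 at 0 in all 5 and Cd8a and Cd4 at 0 in the 3 fresh ones. Within it Cd3e was at 8.42, 1.81, 5.30, 1.79 and 1.35 in the same order. The sum was thus high where Pdcd1 and Klrg1 were high, and its part in them was not tested. The thymocyte-like cells of the week 3 library had Klrg1 at 0.149 and Pdcd1 at 10.3, both below the levels of the Gata3-rich cells beside them. The summed level of 12 cycling genes was 92.6, 559, 115, 1700 and 1400 in the same order, high where Havcr2 was high between libraries. Within these libraries the clusters led by cycling genes had Havcr2 at 22.1 and 7.15 CPM in week 2 fresh cells. They had 14.0 and 9.77 in the week 2 culture and 10.2 and 7.12 in the week 3 culture. The clusters with the most Havcr2 had 40.9, 43.0 and 41.6 in these libraries. The part of cycling in Havcr2 was not tested either. Of 8 mast cell or basophil markers the summed level was 33.6, 48.6, 37.6, 824 and 618. It was higher after culture than in fresh cells of the same week, as were Cd200r1 and Btla. In the naïve library, where the sum was lowest, Cd200r1 was at 266 and Btla at 6.84. The part of this list was not tested. Most of the cultured sum was Cyp11a1, a steroid synthesis enzyme, at 697 and 615 in the week 2 and week 3 cultures. The protease gene Mcpt8 was at 126 and 1.05 there and at 0 in the 3 fresh libraries. Cpa3 was at 33.0 in naïve, 0 in week 2 fresh and 37.1 in week 3 fresh cells, and at 0.0732 and 0.0165 in the cultures. Gata2 was detected in both cultures at 0.181 or less and Tpsb2 in the week 3 culture at 0.807. Fcer1a, Ms4a2 and Mcpt4 were at 0 in both cultures. Summed epithelial markers (8 genes) were at 292 in the naïve and at 2.49 to 44.8 in the other libraries. Summed endothelial markers (10 genes) were at 445 in the naïve and at 45.9 to 134 in the others. The part of either list in the naïve ratios was not tested.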

How the data were processed

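Single-cell 3′ RNA was measured in 5 libraries of sorted lung ILC2s. The authors made the deposited counts (whole UMI counts per gene and barcode, filtered matrices, not normalized) with Cell Ranger 3.0.2 on GRCm38 per the labels, while the header of the naïve matrix and the study's reporting summary name 6.0.0. The annotation version was not given in the sources used here. The members and lists were chosen with earlier results of these data known, and the rule that named clusters was written after the clusters were seen.

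A barcode was kept if it had 200 genes or more and a mitochondrial share below 5%. No doublet caller was run. Pulse width gated doublets in the sort, which came before the single-cell step, so doublets may remain. Libraries shared at most 0.375% of barcodes (of the smaller library). Each library was clustered on its own (2000 variable genes without the members, 30 principal components, 15 neighbours, Leiden resolution 0.6; igraph 0.11.9, leidenalg 0.10.2). The Gata3 limit was 1/3 of the summed Gata3 and Il1rl1 levels in the highest cluster of 100 cells or more of the same library. A cluster at or above it was Gata3-rich unless 3 or more markers, and at least 1/2, of another list stood at 4-fold. Clusters below it were named after a list with 3 or more such markers. Clusters with median UMIs under 1/3 of the library's were left unnamed unless their own list had a marker among the 10 leading genes. Clusters named for another type were also left unnamed where a different list had more markers among those 10. Levels were summed counts in CPM with exact Poisson intervals, ratios had exact binomial intervals, and shares used cells thinned to 2000 UMIs with Clopper-Pearson intervals.

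Counts summed per library were tested with edgeR 4.0.16 (TMM, filterByExpr, quasi-likelihood test, 2 ta-activated against 2 ta-non-activated libraries, two-sided, Benjamini-Hochberg adjustment over all genes, threshold 0.05), with DESeq2 1.42.0 as an alternative (R 4.3.3, Python 3.11.15). The test was also run on simulated counts, with mean levels and in part a dispersion taken from these data. The outcome is not given here. Weeks 2 and 3 served as replicates of each condition, each a pool of 5 mice, so p-values also carry the difference between weeks. The naïve group has 1 library and no test. A gene was counted at 2-fold in both comparisons of a pair, with at least 20 UMIs in all. Named genes were the 9 members, up to 4 genes with the most UMIs of each list, and the 3 genes most like each member. Gene positions came from GENCODE M21 and promoters from RefSeq GRCm38.p6, which held 6 of the 9. Alternatives covered normalization, filters, the cells summed, thinning, clustering resolution, a block for the week and each library left out.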

Additional observations from a re-analysis of the deposited data

Results flagged for a closer look

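In 3 receptors the ratio of ta-activated to ta-non-activated Gata3-rich cells went in opposite directions in the 2 weeks. For Ctla4 it was 272 at week 2 and 0.142 at week 3, for Havcr2 0.878 and 7.45, and for Vsir 4.40 and 0.284. Havcr2 differed between the weeks in fresh cells (25.7 and 2.89 CPM) and little in cultured cells (22.6 and 21.5). For Ctla4 and Vsir the intervals of the 2 weeks were apart in fresh and in cultured cells. The week 2 fresh library had a Pearson r of 0.85 and 0.833 with the cultured libraries, but 0.744 and 0.514 with the week 3 fresh and naïve ones. With 1 library for each week and condition the difference between weeks was not tested.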

How the results depend on the processing

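The number of genes past the threshold between ta-activated and ta-non-activated libraries was 0 in edgeR, 1037 with DESeq2, 0 to 1646 with 1 library left out, and, in alternatives chosen after seeing the data, 177 in the Gata3-rich clusters with a replicate block and 0 to 331 there with 1 library left out (0 and 331 without the week 3 and week 2 ta-non-activated library, 179 and 226 without the week 2 and week 3 ta-activated one). Receptors past it were 0 to 2 with 1 library left out, over all kept cells and in Gata3-rich clusters alike. With the week as a replicate block over all kept cells it was 0 genes. The labels do not say that a week pairs libraries. Ctla4 had a log2 fold change of -0.75, but 0.56 with the replicate block, 2.27 in Gata3-rich clusters, 2.11 there with the block, -4.50 to 6.85 with a library left out, and -1.89, 0.82, 3.01 and 6.90 with one left out of the Gata3-rich fit (the first without the week 2 ta-activated library). Havcr2 (0.49) ranged from -0.47 to 4.75 with a library left out and from -0.46 (without the week 3 ta-non-activated library) to 2.80 in the Gata3-rich fit. Vsir (0.69) turned to -0.35 in Gata3-rich clusters, -0.26 to 1.79 with a library left out, and -1.32, -1.14, 1.48 and 0.026 in the Gata3-rich fit without the week 2 ta-non-activated, the week 2 ta-activated, the week 3 ta-non-activated and the week 3 ta-activated library. Naïve over week 3 ratios turned in Gata3-rich clusters to 1.41 for Ctla4, 0.897 for Tigit and 0.919 for Klrg1. The count of receptors 2-fold higher in naïve cells moved from 6 to 2 in Gata3-rich clusters and was 7 with either fresh tumour library left out. By share of cells it moved from 5 to 1 without thinning, to 2 with 1000 UMIs and to 1 in Gata3-rich clusters. By level in Gata3-rich clusters it moved from 2 to 4 at resolution 1.0 and was 2 and 7 with a fresh library left out. The share of all genes was 25.9% beside the 6 and 18.2% beside the 2, and was not counted at the other settings. With a fresh library left out the rule rests on 1 comparison and is less strict. The counts without a share beside them are thus no result about the receptors. With TMM factors the naïve over week 2 ratio of Cd200r1 over all kept cells was 1.77 in place of 2.17. The cause of these changes was not tested. Tigit and Lag3 had low counts, with 3 UMIs or fewer in several libraries.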
